A study of Homo sapiens with 12 samples.

Results

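The integrated stress response is the pathway by which a cell lowers protein synthesis when it senses stress. The genes described here are its 8 upstream components in SK-N-DZ neuroblastoma cells: the 4 kinases that phosphorylate the translation initiation factor eIF2α (EIF2AK1, EIF2AK2, EIF2AK3 and EIF2AK4), the pair that carries mitochondrial stress to one of them (OMA1 and DELE1), and the phosphatase subunits that reverse the mark (PPP1R15A and PPP1R15B). They were chosen by gene symbol, 8 of the 43769 genes in the count table, and all 8 passed the filter on low counts with 15828 genes in all.

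SK-N-DZ is a human neuroblastoma line with amplified MYCN and unaltered ARID1A, a subunit of the SWI/SNF chromatin remodelling complex. The study asked how loss of ARID1A changes the response of neuroblastoma cells to interferon gamma (IFNγ), and RNA was sequenced from 12 libraries, 3 in each of 4 groups. The study describes a clonal SK-N-DZ line with a Tet-inducible hairpin against ARID1A, made among several clones, and which clone or hairpin each library came from is not given in the sources used here. Group C received neither agent, and group D received doxycycline for 4 days to switch the hairpin on. Group I received IFNγ for 24 h, and group DI received both agents. The legend of the sequencing figure in the study gives a shorter time of doxycycline for the induction. The labels give the genotype of C and I as WT and that of D and DI as shARID1A, although the methods describe the hairpin as switched by doxycycline in these lines. Without a library of hairpin-free cells given doxycycline, the hairpin and the drug cannot be told apart.

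Phosphorylated eIF2α blocks its own exchange factor, eIF2B, which lowers general translation and raises translation of a few messages, ATF4 among them. Each kinase answers a different signal: EIF2AK1 (HRI) heme shortage and, through OMA1 and DELE1, mitochondrial damage; EIF2AK2 (PKR) double-stranded RNA; EIF2AK3 (PERK) unfolded protein in the endoplasmic reticulum; and EIF2AK4 (GCN2) amino acid shortage. The kinases act by phosphorylation and OMA1 by cleavage, so mRNA levels describe the amount of message and not the activity of the pathway.

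The sequences of the EIF2AK2 and PPP1R15B promoters are shown because these were the genes whose level differed most with IFNγ and with doxycycline, respectively. Each runs from 250 bases before to 50 bases after the annotated start in RefSeq (GRCh38.p14), 5′ to 3′ on the gene's own strand, with matches to the motifs searched in capitals. The EIF2AK2 window is chr2:37156931-37157230 and the PPP1R15B window is chr1:204411768-204412067, both on the minus strand.
EIF2AK2: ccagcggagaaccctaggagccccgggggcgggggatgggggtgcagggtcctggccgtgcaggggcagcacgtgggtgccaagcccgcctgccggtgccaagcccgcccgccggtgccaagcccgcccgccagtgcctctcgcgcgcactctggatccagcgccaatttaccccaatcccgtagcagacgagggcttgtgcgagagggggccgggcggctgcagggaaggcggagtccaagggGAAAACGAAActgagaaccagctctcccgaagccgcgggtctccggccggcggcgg
PPP1R15B: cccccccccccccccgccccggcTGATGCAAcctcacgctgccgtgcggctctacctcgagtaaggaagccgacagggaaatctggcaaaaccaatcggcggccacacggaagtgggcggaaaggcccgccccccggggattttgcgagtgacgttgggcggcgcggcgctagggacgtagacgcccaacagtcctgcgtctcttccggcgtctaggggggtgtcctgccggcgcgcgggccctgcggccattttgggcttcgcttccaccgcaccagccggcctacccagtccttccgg

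The motif cores searched, on both strands, were 3. GAAA followed by any 2 bases and GAAA again, the core of the interferon-stimulated response element, was in 3.57% of 35116 RefSeq promoters, ttcnnngaa, the core of the gamma-activated site, in 7.66%, and tgatgnaa, a core bound by ATF4 with its partners, in 3.62%. The capitals in EIF2AK2 are GAAAACGAAA, from position -6 to position 4 around the start at chr2:37156977-37156986. Those in PPP1R15B are TGATGCAA, from -227 to -220 at chr1:204412037-204412044. No core was found in the windows of EIF2AK3, EIF2AK4, DELE1, OMA1 or PPP1R15A, and EIF2AK1 had no entry among the promoters used here. The matches did not overlap one another.

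The libraries held 16469832 to 21790869 counts. ARID1A, the target of the hairpin, stood at 197, 186 and 165 CPM (counts scaled by TMM library size to a common total of 1000000) in C and at 197, 159 and 158 CPM in D, so the groups overlapped, while it stood at 192, 203 and 194 CPM in I and at 151, 133 and 148 CPM in DI, which did not. Its log2 fold change was -0.09 (SE 0.11) in D against C, with an adjusted p of 0.788, and -0.44 (SE 0.11) in DI against I, with an adjusted p of 0.115 that became 0.0111 with the libraries blocked by replicate number. ARID1A mRNA was thus lower in DI than in I by the blocked test, while no fall was called in D against C, and directions below are given as those of doxycycline treatment. Of 11 markers of sympathetic neuroblastoma, 10 were at 1 CPM or more in all 12 libraries. TH, the first enzyme of catecholamine synthesis, had a mean of 41.7 ± 36.1 CPM in C against 3.02 ± 3.49 in D, and of 27.5 ± 28.9 in I against 1.91 ± 1.16 in DI (SD, n = 3), a difference not called with or without the block. With the block HAND2, a sympathetic transcription factor, fell in both doxycycline comparisons (-0.60 and -0.51). DBH, a later enzyme of that synthesis, fell in D against C (-1.26), while PHOX2A rose and MYCN fell in both IFNγ comparisons. Of the 11 without the block, 4 lay above 0 and 7 below in D against C, with a median of -0.050. In DI against I 3 lay above 0 and 8 below, with a median of -0.046. GATA3, another of the 11, lay above 0 in both, at 0.27 and 0.22, and was not called. The 6 leukocyte markers summed to 0.198 to 1.496 CPM, with CD3E at 3 counts or fewer over all libraries. The 7 mesenchymal markers summed to 59.5 to 116 CPM in C and 85.9 to 161 in I, and to 42.7 to 105 in D and 66.8 to 134 in DI. With the block PDGFRB rose in both IFNγ comparisons and COL1A2 in I against C. As a list they did not rise together. Without the block 3 lay above 0 and 4 below in I against C, with a median of -0.18. In DI against D 4 lay above 0 and 3 below, with a median of 0.0091. The 5 Schwann cell markers summed to 5.10 to 7.36 CPM in C and 2.29 to 3.24 in D, and with IFNγ to 5.74 to 11.005 in I and 3.03 to 6.62 in DI. The part of these markers in the results was not tested. Libraries with the same replicate number deviated together from their group means (r from 0.338 to 0.804 over 18 pairs, and from -0.628 to 0.143 over 36 pairs with unlike numbers). By chi-square over genes, replicates 1 and 2 were the closest pair in C and I, and replicates 1 and 3 in D and DI. Nothing in the labels says that replicates were separate cultures, so p-values measure the spread between these libraries.

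The clearest difference among the 8 genes was in EIF2AK2. EIF2AK2 encodes PKR, a kinase switched on by double-stranded RNA and a known interferon-induced gene, annotated in GENCODE 29 (GRCh38) at chr2:37099210-37157065 on the minus strand. Its level was 41.7, 41.0 and 52.7 CPM in C and 120.0, 132 and 124 CPM in I. It was 41.5, 43.4 and 57.9 CPM in D and 107, 112 and 126 CPM in DI. All 6 libraries with IFNγ lay above all 6 without it, and replicate 3 was the highest within C, D and DI.

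In group means, EIF2AK2 rose from 45.2 ± 6.57 CPM in C to 125 ± 5.87 CPM in I (SD, n = 3), a log2 fold change of 1.47 (SE 0.15, 2.78-fold) with an adjusted p of 0.000122 in edgeR's quasi-likelihood test over all genes. With doxycycline it rose from 47.6 ± 8.95 CPM in D to 115 ± 9.60 CPM in DI (SD, n = 3), a log2 fold change of 1.27 (SE 0.14, 2.42-fold) with an adjusted p of 0.000445 in edgeR. EIF2AK2 was the 1 member of 8 called in each of these comparisons, against 2.21% of all tested genes in I against C and 1.72% in DI against D. Called with the block too, it was again the 1 member, beside 6.02% and 4.46% of all genes. Its groups did not overlap in either comparison, which was so for 15.1% and 9.55% of tested genes and for no other member. It was also the 1 member of 8 higher with IFNγ in all 6 same-number pairs, beside 12.3% of tested genes. The log2 fold change stayed between 1.40 and 1.60 in I against C, and between 1.18 and 1.44 in DI against D, when each library was left out in turn. These are bulk libraries, in which more message per cell and more cells with the message cannot be told apart.

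Doxycycline made no called difference to EIF2AK2. Its log2 fold change was 0.075 (SE 0.14, adjusted p of 0.885 in edgeR) in D against C and -0.12 (SE 0.14, adjusted p of 0.821 in edgeR) in DI against I. The difference between its IFNγ responses with and without doxycycline was -0.20 on the log2 scale (SE 0.20, adjusted p of 1 in edgeR), in a test that called 0.0% of all genes, 0 of 15828, while 99 had an unadjusted p under 0.05 and DESeq2 called 2. IFNγ accounted for 95.3% of the sum of squares of log2 CPM of EIF2AK2 over the 12 libraries, where the median of all tested genes was 4.81%.

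**Figure D1:**
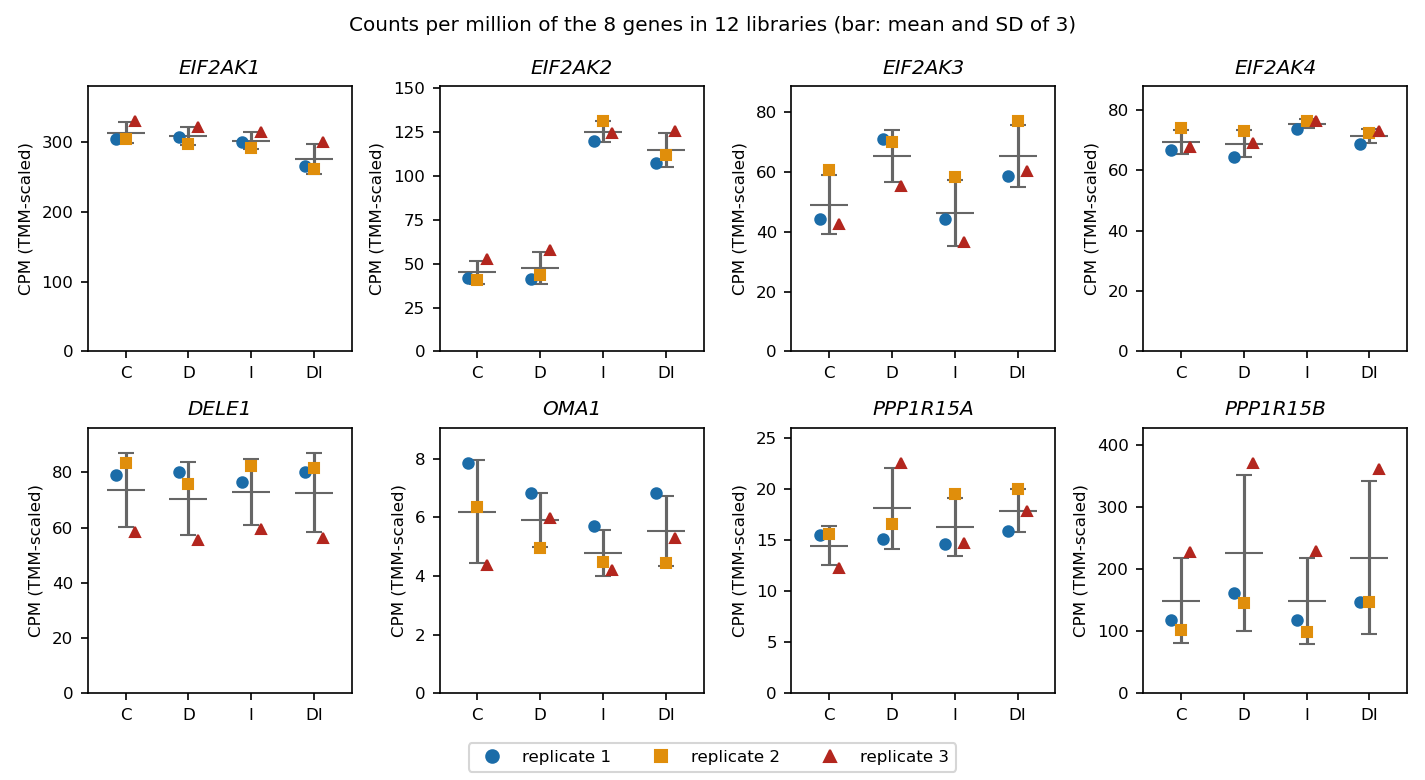
CPM (vertical axes, each from 0) of the 8 genes in every library, by group (C untreated, D doxycycline, I IFNγ, DI both); symbols mark the replicate number and the bars give the mean and SD of 3. EIF2AK2 stands higher in all 6 libraries with IFNγ, replicate 3 of PPP1R15B stands above replicates 1 and 2 in every group, and replicate 3 of DELE1 stands below them.

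EIF2AK3 was the kinase whose level differed most with doxycycline. It encodes PERK, an endoplasmic reticulum transmembrane kinase, and lies at chr2:88556741-88627576 on the minus strand. Its level was 44.3, 60.6 and 42.6 CPM in C and 71.1, 70.0 and 55.5 CPM in D. It was 44.3, 58.4 and 36.6 CPM in I and 58.6, 77.3 and 60.3 CPM in DI. D overlapped C through its replicate 3, whereas every DI library lay above every I library. Groups without overlap were found for 0 of 8 members in D against C, beside 19.2% of tested genes, and for 2 of 8 in DI against I (EIF2AK3 higher and EIF2AK4 lower), beside 16.6%.

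Group means of EIF2AK3 were 49.1 ± 9.95 CPM in C and 65.5 ± 8.73 in D, and with IFNγ 46.4 ± 11.1 in I and 65.4 ± 10.3 in DI (SD, n = 3). The log2 fold change was 0.42 (SE 0.20) in D against C and 0.49 (SE 0.20) in DI against I, and neither passed (adjusted p of 0.386 and 0.352 in edgeR). Both passed once the block was fitted, at 0.43 (SE 0.10, adjusted p of 0.0217 in edgeR) and 0.51 (SE 0.10, adjusted p of 0.0131 in edgeR). Doxycycline libraries were higher in 6 of 6 pairs with the same number, by 0.21 to 0.72 on the log2 scale. Such a run of 6 was seen in 2 of 8 members, EIF2AK3 and PPP1R15B, beside 13.1% of tested genes, and the opposite run in 0 of 8, beside 14.7%. IFNγ gave -0.082 (SE 0.20) in I against C and -0.0038 (SE 0.20) in DI against D. The blocked calls were lost when replicate 3 was left out of every group, at 0.44 and 0.42 with adjusted p of 0.149 and 0.226 in edgeR.

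EIF2AK1, the heme-regulated kinase that also answers DELE1, had the highest mean level per length in every group. Per kilobase of annotated exon, PPP1R15B stood above it in D replicate 3 and DI replicate 3. By the longest transcript that held only in DI replicate 3, and by the median transcript length in neither. EIF2AK1 lies at chr7:6022244-6059230 on the minus strand. It stood at 305, 305 and 331 CPM in C and 307, 297 and 322 CPM in D. With IFNγ it stood at 300.1, 291 and 315 CPM in I and 266, 261 and 301 CPM in DI. DI held the lowest values, and its replicate 3 fell within the range of I. The log2 fold changes were -0.023 in D against C (0.065 with libraries scaled by their totals alone), -0.053 in I against C, -0.13 in DI against I and -0.16 in DI against D (SE 0.086 each), and none passed, with or without the block. Libraries with IFNγ were lower in 6 of 6 same-number pairs, with log2 ratios from -0.20 to -0.023. Such a run was seen in 1 of 8 members, beside 11.2% of tested genes. DI was lower than I in 3 of 3 pairs, as it was for EIF2AK4, while DI was higher in 3 of 3 for EIF2AK3, PPP1R15A and PPP1R15B. How many of all tested genes had such a run of 3 was not counted, so these runs do not set the members apart. None of these differences was called without the block. EIF2AK1 shares 532 exon bases with AIMP2 on the opposite strand, which held 662 to 1368 counts per library. EIF2AK2 likewise shares 35 exon bases with GPATCH11 on the opposite strand, which held 449 to 800 counts. EIF2AK3 shares 38 with AC062029.1 (18 to 92 counts) and 781 with AC104134.1 (0 to 2 counts), both on the opposite strand. The strand setting of the counting is not given in the sources used here, so reads of the shared bases cannot be told apart.

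EIF2AK4 encodes GCN2, the kinase that binds uncharged tRNA, at chr15:39934146-40035591 on the plus strand. Its level was 66.6, 73.9 and 67.8 CPM in C, 64.4, 73.1 and 69.1 CPM in D, 73.6, 76.5 and 76.4 CPM in I, and 68.6, 72.4 and 72.9 CPM in DI. DI lay below I without overlap, at -0.082 on the log2 scale (SE 0.083, adjusted p of 0.787 in edgeR), a difference that became 0.010 when libraries were scaled by their totals alone. D against C gave -0.012 (SE 0.083), which became 0.077 under the same scaling. IFNγ gave 0.12 in I against C and 0.050 in DI against D (SE 0.083 each, adjusted p of 0.946 and 1.000 in edgeR).

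OMA1 and DELE1 form the mitochondrial arm. OMA1 is a stress-activated protease of the inner mitochondrial membrane, at chr1:58415384-58546802 on the minus strand, and had the lowest level of the 8 genes, from 4.19 to 7.87 CPM over all libraries, which is 70 to 143 counts. It stood at 7.87, 6.36 and 4.36 CPM in C, 6.82, 4.97 and 5.97 CPM in D, 5.69, 4.47 and 4.19 CPM in I, and 6.83, 4.46 and 5.31 CPM in DI. All groups overlapped. In 3 of 3 same-number pairs OMA1 was lower in I than in C, as was EIF2AK1, while EIF2AK2 and EIF2AK4 were higher in 3 of 3. The share of all genes with such a run of 3 was not counted. OMA1 gave a log2 fold change of -0.37 in I against C (SE 0.27, adjusted p of 0.964 in edgeR). That value was -0.18 without C replicate 1 and -0.57 without C replicate 3, and the pair of replicate 3 differed by -0.058. Its other differences lay between -0.097 and 0.21, none called. OMA1 shares 257 exon bases with DAB1 on the same strand, to which 1 to 129 counts per library were assigned.

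DELE1 is the protein that OMA1 cleaves and that then binds HRI in the cytosol, and its gene lies at chr5:141923808-141942047 on the plus strand. Its level was 79.0, 83.5 and 58.5 CPM in C, 80.2, 75.6 and 55.4 CPM in D, 76.6, 82.4 and 59.3 CPM in I, and 80.0, 81.6 and 56.3 CPM in DI. Replicate 3 was the lowest library in each group, at 0.696 to 0.746 of the mean of the other two. The replicate number accounted for 96.6% of the sum of squares of DELE1, doxycycline for 0.688% and IFNγ for 0.0954%. The medians of all tested genes were 35.9%, 12.2% and 4.81%. The 4 log2 fold changes between treatments lay between -0.065 and 0.044 (SE 0.20 each, and 0.065 with the block), none called.

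PPP1R15A and PPP1R15B bring protein phosphatase 1 to eIF2α. PPP1R15A (GADD34), at chr19:48872392-48876057 on the plus strand, is the stress-induced subunit and itself a target of ATF4. It stood at 15.5, 15.6 and 12.3 CPM in C, 15.1, 16.6 and 22.6 CPM in D, 14.6, 19.5 and 14.7 CPM in I, and 15.9, 19.998 and 17.8 CPM in DI. All groups overlapped, and the highest library was D replicate 3. The log2 fold change was 0.32 (SE 0.19) in D against C and 0.14 (SE 0.19) in DI against I, with adjusted p of 0.496 and 0.862 in edgeR, and 0.243 and 0.645 with the block. In D against C the same-number log2 ratios were -0.035, 0.091 and 0.88, and the log2 fold change was 0.13 without D replicate 3 and 0.021 without every replicate 3. IFNγ gave 0.17 in I against C and -0.016 in DI against D, none called.

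PPP1R15B (CReP) is the constitutive subunit, at chr1:204403387-204411791 on the minus strand. It stood at 119, 102 and 228 CPM in C and at 163, 145 and 372 CPM in D. With IFNγ it stood at 118, 99.6 and 229 CPM in I and at 147, 147 and 361 CPM in DI. Within each replicate number every doxycycline library was higher than its partner, while replicate 3 was far above the other two in every group, so the groups overlapped.

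Means of PPP1R15B were 149 ± 68.5 CPM in C and 227 ± 126 in D, and with IFNγ 149 ± 69.8 in I and 219 ± 124 in DI (SD, n = 3). Without any block the log2 fold change was 0.60 (SE 0.50) in D against C and 0.55 (SE 0.50) in DI against I, with adjusted p of 0.660 and 0.750 in edgeR. The blocked value was 0.56 (SE 0.079, adjusted p of 0.00195 in edgeR) and 0.52 (SE 0.079, adjusted p of 0.00356 in edgeR). The 6 same-number ratios ran from 0.32 to 0.71 on the log2 scale, all above 0, and IFNγ gave -0.0040 (SE 0.50) in I against C and -0.051 (SE 0.50) in DI against D. In the blocked test EIF2AK3 and PPP1R15B were the 2 members of 8 called in D against C, where 13.9% of all tested genes were called, and in DI against I, where 10.5% were. Without the block 0 of 8 members were called in either comparison, against 1.23% and 0.67% of all tested genes. At an unadjusted p under 0.05 without the block, EIF2AK3 in DI against I was the 1 member (p of 0.0317 in edgeR). Under that limit were 1934 of 15828 tested genes in DI against I and 2248 in D against C. DESeq2 called 0 members in both, beside 825 of 12735 genes in D against C and 635 of 13344 in DI against I. With replicate 3 left out of every group the blocked values of PPP1R15B were 0.48 and 0.46, with adjusted p of 0.0715 and 0.106 in edgeR.

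**Figure D2:**
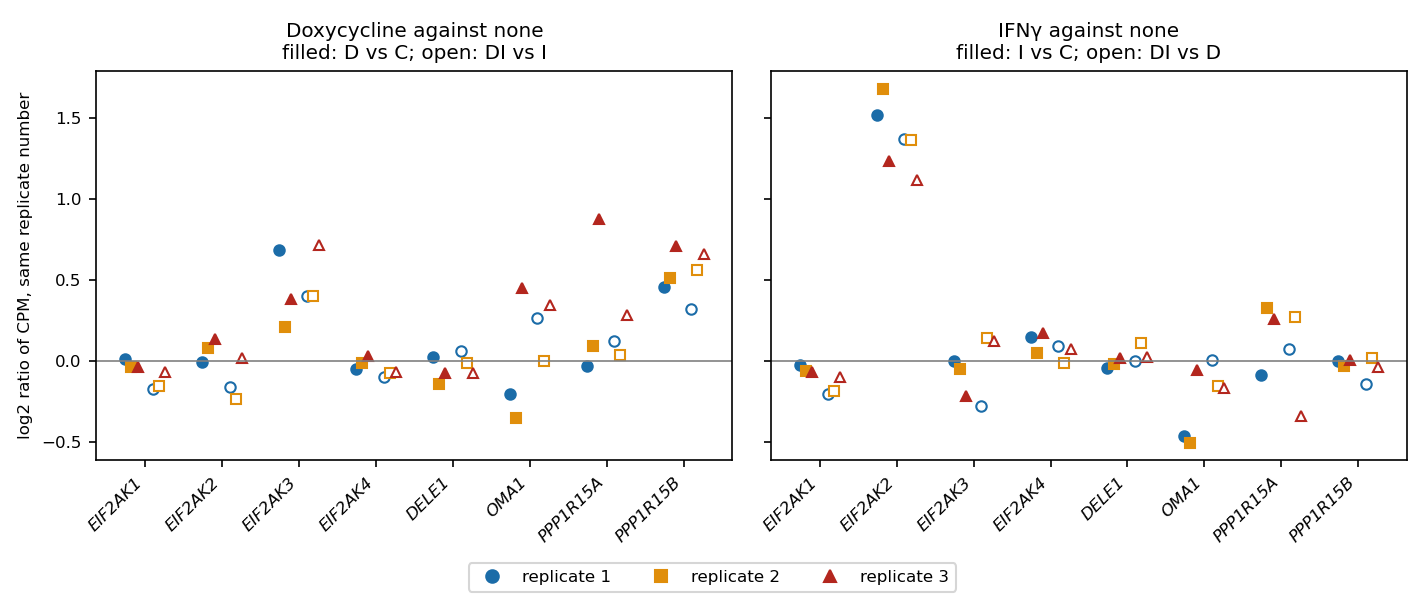
Log2 ratio of CPM between libraries with the same replicate number (vertical axis) for each gene, for doxycycline (left; filled D against C, open DI against I) and IFNγ (right; filled I against C, open DI against D). EIF2AK3 and PPP1R15B lie above 0 in 6 of 6 doxycycline pairs and EIF2AK2 in 6 of 6 IFNγ pairs.

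**Figure D3:**
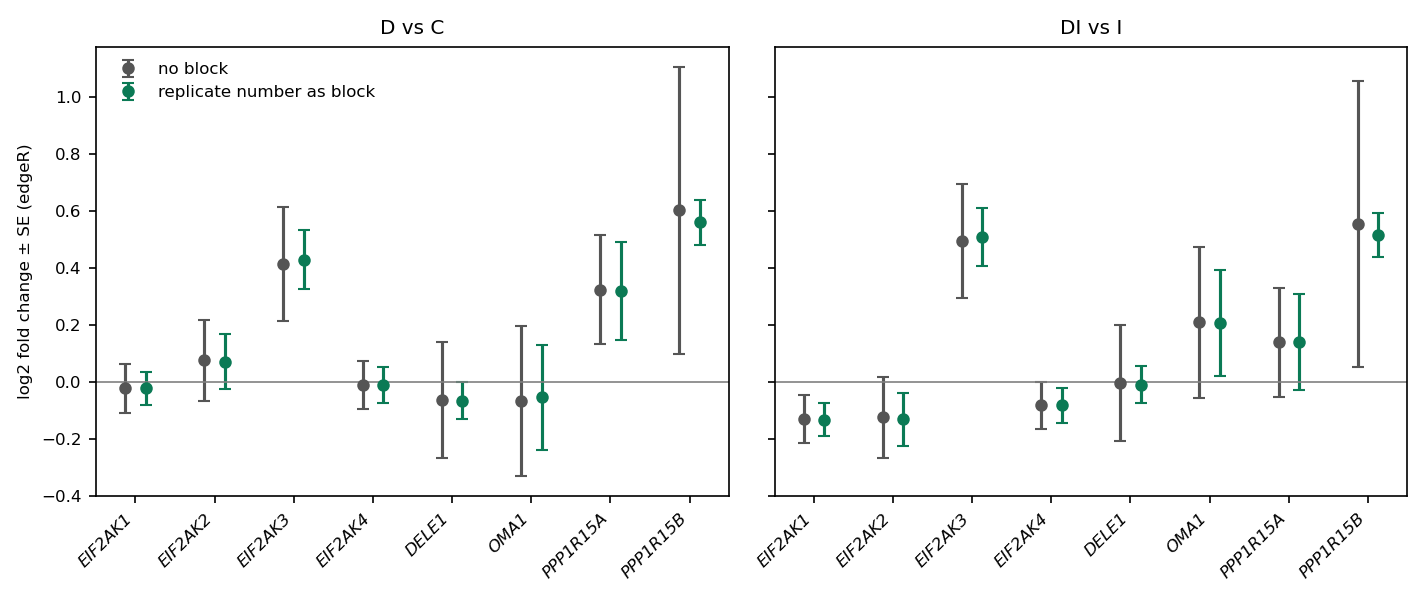
Log2 fold change with its SE (vertical axis) in D against C and DI against I, without and with the replicate number as a block. The SE of PPP1R15B falls from 0.50 to 0.079 with the block while its log2 fold change stays between 0.52 and 0.60.

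The replicate 3 pattern of PPP1R15B was shared by its neighbours on the chromosome, a description made after the values were seen. Replicate 3 was at 2.07, 2.42, 2.10 and 2.45 times the mean of replicates 1 and 2 in C, D, I and DI. Among 11438 tested genes with a mean of at least 5 CPM, 1.77% exceeded 1.5 times in all 4 groups. PPP1R15B lay in an unbroken run of 19 such genes at chr1:203861603-206464443, from SNRPE to SRGAP2, with PLEKHA6 and PIK3C2B on either side of it. The other 18 genes of the run stood at 1.62 to 4.16 times (geometric mean of the 4 groups), with a median of 2.24.

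The 51 tested genes with a mean of at least 5 CPM within 5 Mb on either side of PPP1R15B were taken whatever their ratio. Their median ratio was 1.53 (lower quartile 1.06), against 0.993 over all 11438. Around DELE1 it was 0.824 over 64 genes, and over the 538 other genes of chromosome 5 it was 0.836, while DELE1 itself stood at 0.718. Around the remaining 6 members the median lay between 0.984 and 1.02. The cause of these differences between libraries was not tested.

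The doxycycline differences did not run evenly through the neighbours of PPP1R15B. For the other 18 genes of the run, the blocked log2 values of D against C centred on a median of -0.11, from -0.62 to 0.69, and those of DI against I on 0.014, from -0.64 to 0.57. Of the 18, 6 passed in edgeR in each comparison, and they were PIK3C2B, MDM4 and ELK4, which rose in both, and PLEKHA6, LRRN2 and NFASC, which fell in both. MDM4, which encodes an inhibitor of p53, gave 0.69 and 0.57, and LRRN2 gave -0.62 and -0.45. These genes were named after their values were seen.

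**Figure D4:**
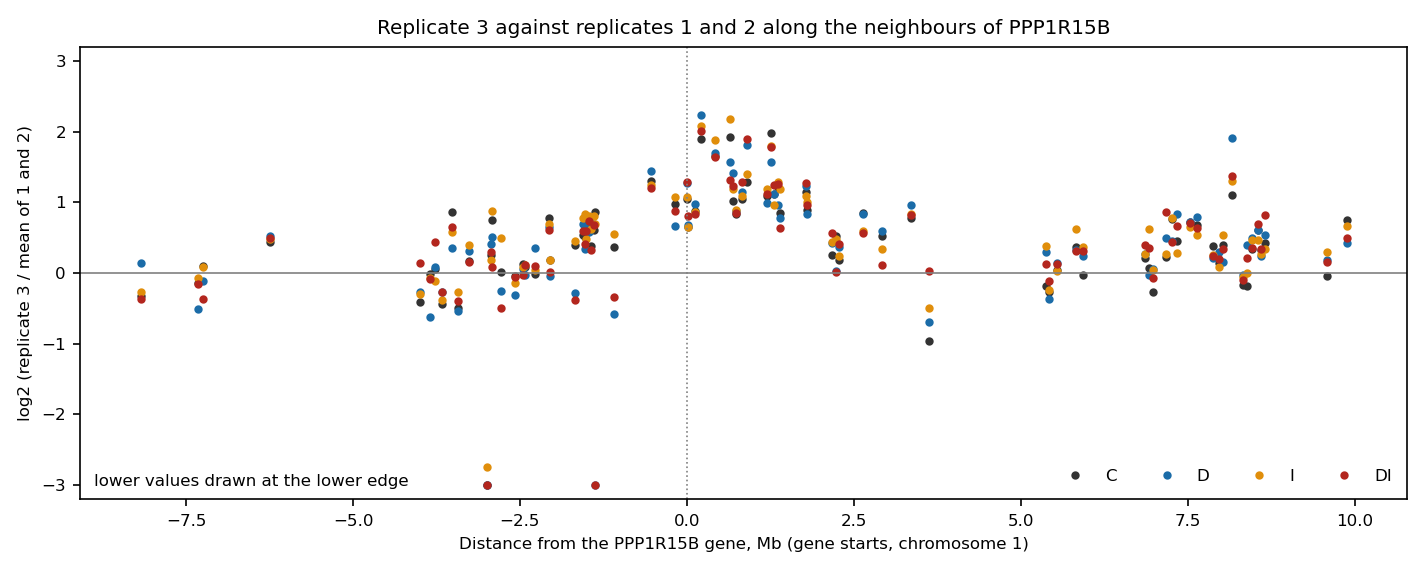
Log2 ratio of replicate 3 to the mean of replicates 1 and 2 (vertical axis) for tested genes with a mean of at least 5 CPM, against the distance of the gene from PPP1R15B in Mb (horizontal axis), in each of the 4 groups; lower values are drawn at the lower edge. The 19 genes of the run around PPP1R15B all lie above a ratio of 1.5 in every group.

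Levels of different genes were compared per kilobase of annotated exon. In C the order was EIF2AK1 at 56.5 ± 2.71 CPM per kb, PPP1R15B at 28.6 ± 13.1, DELE1 at 12.2 ± 2.20, EIF2AK3 at 9.04 ± 1.83, EIF2AK4 at 5.81 ± 0.327, PPP1R15A at 4.67 ± 0.609, EIF2AK2 at 4.20 ± 0.611 and OMA1 at 1.67 ± 0.473 (SD, n = 3). Neighbours in this order that overlapped were DELE1 with EIF2AK3 and PPP1R15A with EIF2AK2. With IFNγ, EIF2AK2 moved from place 7 to place 4 in I, at 11.7 ± 0.546 CPM per kb, and to place 5 in DI, at 10.7 ± 0.893. Its range in I, 11.2 to 12.2, lay within that of DELE1 at place 3, 9.81 to 13.6. By the longest transcript it moved from place 7 to 5 in I and 6 in DI. By the median transcript length it moved from place 4 in C to 2 in I, and from 5 in D to 2 in DI. With the longest transcript as the length, EIF2AK4 came at 12.6 CPM per kb in C, above EIF2AK3 at 10.6.

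The targets of the kinases and phosphatases are described next. The 3 subunits of eIF2, EIF2S1, EIF2S2 and EIF2S3, gave log2 fold changes of -0.20, -0.35 and 0.085 in D against C and of -0.24, -0.28 and 0.097 in DI against I, none called, with a median of -0.20 in D against C beside -0.0012 over all genes. EIF2S2 passed with the block in D against C (-0.38, adjusted p of 0.0495 in edgeR). The catalytic subunits of protein phosphatase 1, PPP1CA, PPP1CB and PPP1CC, gave -0.31, -0.022 and -0.48 in D against C and -0.29, 0.028 and -0.39 in DI against I, none called. With the block PPP1CC fell in both (adjusted p of 0.0116 and 0.0325 in edgeR) and PPP1CA in D against C (adjusted p of 0.0398 in edgeR). Of the 5 subunits of eIF2B, 0 passed in any comparison (median -0.023 in D against C), and EIF2B2 fell with the block, by -0.47 and -0.44 (adjusted p of 0.0164 and 0.0256 in edgeR).

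ATF4 and the genes downstream of it stood higher with doxycycline, but few passed. Of 20 genes listed, 18 were tested. In D against C 17 of 18 lay above 0, with a median of 1.26 beside -0.0012 over all genes, and 1 rose, CHAC1, a glutathione-degrading enzyme, at 3.73 (SE 0.75, adjusted p of 0.0425 in edgeR). In DI against I 17 of 18 lay above 0, with a median of 1.00, and 0 passed. Several of these genes were spread widely within D. SLC7A11 ran from 7.66 to 114 CPM in D (1.62 to 2.70 in C) and SESN2 from 25.9 to 93.9 (11.3 to 16.1 in C). TRIB3, at 17.2 to 106 CPM in D, overlapped C at 17.8 to 39.3. ATF4, at 391 to 515 CPM in D, did not overlap C at 253 to 351. In ATF3, replicate 3 stood at 3.75 times the mean of replicates 1 and 2 in D, and at 2.16 times in C. How far replicate 3 carried the medians was not tested. ATF4 itself gave 0.51 and 0.59 (adjusted p of 0.215 and 0.196 in edgeR). With the block 10 rose in D against C (ASNS, ATF3, CEBPB, CHAC1, DDIT3, GDF15, PHGDH, SESN2, SLC7A11 and XPOT) and 8 in DI against I (ASNS, ATF3, ATF4, CHAC1, PHGDH, SESN2, SLC7A11 and XPOT). No gene of this list passed with IFNγ, and CHAC1 did not pass without replicate 3, when 1 gene of all, a lower one, was called in D against C.

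The genes around each kinase differed in how they moved. Of 17 tested genes of double-stranded RNA sensing and interferon signalling, 15 rose in I against C and 15 in DI against D, as EIF2AK2 did, with medians of 4.39 and 3.85 (-0.0081 and -0.012 over all genes), or 4.34 and 3.10 with genes near 0 counts in the controls set at their bound. OAS3, an activator of RNase L, went from 0 counts in every C library to 49.1 ± 15.8 CPM in I and from 0 to 1 counts in D to 26.4 ± 3.805 CPM in DI (SD, n = 3), and OAS1, of the same family, from 0 counts in C to 3.50 ± 2.04 CPM in I and from 0 counts in D to 1.00 ± 0.650 CPM in DI (SD, n = 3). IFIT3, an antiviral protein, went from 0 to 2 counts per library in both C and D to 273 ± 67.8 CPM in I and 100.5 ± 19.9 in DI (SD, n = 3), and IFIH1, an RNA sensor, from 0 counts in D to 20.9 ± 7.46 CPM in DI. RIGI rose with doxycycline alone, by 1.20 (SE 0.25, adjusted p of 0.0472 in edgeR), and IFIT2 and IFIT3 were lower in DI than in I, at -1.16 and -1.44 (adjusted p of 0.0330 and 0.0247 in edgeR). With the block ADAR, IRF9 and RIGI rose and ISG15 fell in D against C, and IFIT1, IFIT2, IFIT3, ISG15 and OAS3 were lower in DI than in I.

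Among 14 regulators of the kinases, ADAR, which edits double-stranded RNA, rose by 0.86 in I against C and 0.67 in DI against D (adjusted p of 0.00174 and 0.0116 in edgeR), and 0 passed with doxycycline (medians of -0.036 and -0.0019, beside -0.0012 and -0.0068 over all genes). With the block ADAR, IMPACT and GCN1 rose in D against C. Of 9 genes of the endoplasmic reticulum sensors (medians of 0.16 and 0.048), DNAJB9, a co-chaperone, fell from 35.0 ± 3.33 CPM in C to 18.2 ± 2.09 in D and from 36.5 ± 0.693 in I to 17.99 ± 0.455 in DI (SD, n = 3), a log2 fold change of -0.95 and -1.02 (adjusted p of 0.00491 and 0.00484 in edgeR). HERPUD1, of the degradation machinery, passed with the block at 1.00 and 0.81, and HSPA5, the chaperone that holds PERK inactive, gave -0.031 and -0.062.

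Of 11 heme genes, around EIF2AK1, 0 passed in any comparison (doxycycline medians of -0.22 and -0.067), and with the block FECH, CPOX and PPOX fell in both doxycycline comparisons and ALAD in D against C. FECH, the last enzyme of heme synthesis, gave -0.70 and -0.72 (adjusted p of 0.00181 and 0.00183 in edgeR). Of 11 genes of the inner membrane proteases and their partners, around OMA1, 0 passed (medians of -0.085 and -0.00084), and with the block CLPP fell in D against C and SPG7 rose in DI against I. The 13 mitochondrially encoded mRNAs were all lower with doxycycline, with medians of -1.96 in D against C and -1.40 in DI against I. COX1 (-2.29), ND3 (-1.74), ND4 (-2.50), ND4L (-2.34), ND5 (-2.02) and ND6 (-2.63) fell in the first and ND4L (-1.93), ND5 (-1.64) and ND6 (-2.13) in the second, and 13 and 12 passed with the block. Their share of all counts was 0.856% to 1.30% in D, where C had 3.35% to 4.99%, and 0.768% to 2.58% in DI, where I had 2.90% to 4.42%. Their part in the values of the 8 genes was not tested.

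The genes whose log2 CPM ran most like each member were listed by Pearson's r over the 12 libraries, among 13961 tested genes with a mean of at least 1 CPM. These libraries share treatments and replicate numbers, so r is given as a description. For EIF2AK2 they were NMI (0.995), IRF2 (0.995), PARP12 (0.987), SOCS1 (0.986) and PCDH17 (0.985). For EIF2AK3 they were CHD3 (0.957), DERL2 (0.954) and ZFR2 (0.946), for EIF2AK4 ROM1 (0.946), TMEM185B (0.916) and FBXW4 (0.900), and for EIF2AK1 TPD52L2 (0.920), DAZAP1 (0.908) and MRAP2 (0.907). DELE1 ran closest to ISLR (0.985), LOC100506405 (0.980) and PCDHB11 (0.979), the last also a gene of chromosome 5, and OMA1 to CROCCP2 (0.903), TMEM201 (0.887) and MAT2A (0.886). PPP1R15A ran closest to CSGALNACT2 (0.894), CACHD1 (0.876), ERCC6 (0.851) and SLC1A4 (0.841), and PPP1R15B to C22orf46P and SEPTIN3 (0.981 each).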

How the data were processed

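RNA of SK-N-DZ cells was sequenced, and the authors deposited 1 table of raw counts per gene for 12 libraries. The labels name DESeq2 for the authors' processing, while the aligner, counter, strand setting and build are not given in the sources used here. All 43769 gene IDs are in GENCODE 29 (GRCh38), and 17165 genes had no count. The authors' tables of fold changes, with 18 further columns of per-library values, were not used.

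Genes were filtered with filterByExpr (minimum count 10, 15828 kept), scaled by TMM and fitted in 1 model of 4 groups with edgeR 4.0.16 (glmQLFit and glmQLFTest, two-sided, 8 residual degrees of freedom) in R 4.3.3, with Benjamini-Hochberg adjustment over all tested genes and a threshold of 0.05. CPM are counts over TMM-scaled library size, times 1000000. The scripts were tested on simulated data. The replicate number was taken to pair libraries, because every same-number pair correlated above 0.1, the lowest at 0.338. It was added as a block in an alternative fit (6 residual degrees of freedom). The highest r of a pair with unlike numbers was 0.143, so the limit of 0.1 alone did not separate the pairs. Deviations from a mean of 3 libraries sum to 0, so low r between unlike numbers is in part built in. Other alternatives were DESeq2 1.42.0 and its size factors, library size alone, no filter, a threshold of 0.01, only the 6 libraries compared, and each library left out. Removal of every replicate 3, alone or with the block, was chosen after seeing the data. No library differed from another of its group by as little as sampling noise (chi-square per gene from 18.6 to 82.2).

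All 8 members were named, with list genes called with doxycycline, the 3 largest with IFNγ, the subunits of eIF2 and PP1, and the 3 or 5 nearest genes by Pearson's r (prior count 2), of which 1 for PPP1R15A and 1 for PPP1R15B are not reported here. Members and lists were chosen with earlier results of these data known. Promoters were matched by symbol (7 of 8). Figures were drawn in Python 3.11.15.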

Additional observations from a re-analysis of the deposited data

How the results depend on the processing

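The EIF2AK2 calls with IFNγ kept their direction and passed under every alternative run. Of 792 alternative values of the members' log2 fold changes, 780 kept their call and either their direction or a value within 1 SE, 4 gained a call, and 8 changed sign by more than 1 SE, none of them called. The 4 gained calls were those of EIF2AK3 and PPP1R15B under the replicate block, in which 2 members were called in D against C and 2 in DI against I in place of 0. The block changed no other call of a member. Under the replicate block all genes called numbered 953 in I against C, 706 in DI against D, 2200 in D against C and 1658 in DI against I, in place of 350, 273, 194 and 106. The DESeq2 Wald test called 558, 442, 825 and 635, and 2 in the test of the difference between IFNγ responses in place of 0. The threshold of 0.01 left 32 in D against C and 30 in DI against I, no filter left 119 in D against C, and only the 6 libraries compared left 16 and 0. Without every replicate 3 these comparisons called 1 and 2.

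Leaving out each library in turn gave 262 to 364 genes in I against C, 210 to 279 in DI against D, 42 to 195 in D against C and 35 to 96 in DI against I. Scaled by library size alone, the split of higher and lower calls was 199 and 89 in D against C, in place of 78 and 116, and 54 and 65 in DI against I, in place of 16 and 90, with the median of all genes at 0.085 in both. PPP1R15B in DI against I was -0.017 without DI replicate 3 and 1.02 without I replicate 3, and in D against C ran from 0.042 to 1.04, none called. Per-length levels depended on the transcript length used, and 0 to 2 of the nearest genes of each member were also nearest by Spearman's rho. The causes were not tested.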
